A study of Mus musculus with 8 samples.

Results

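EVs of activated T cells (ATEVs) were compared with the PBS vehicle in a clone of mouse pancreatic cancer cells, and the genes gained and lost outside the interferon and antigen presentation programme are described. Extracellular vesicles (EVs) are membrane-bound particles released by cells. The 4 libraries compared were the 2 labelled ATEV and the 2 labelled PBS, of 8 in the series. The clone, of low immunogenicity, was isolated from KPCY mice, whose alleles include Trp53LSL-R172H/+, Pdx1-Cre and Rosa26YFP/YFP. All groups therefore share a mutant Trp53 allele and a YFP reporter, with Cre driven by the Pdx1 promoter, and the sample labels give the genotype only as WT. The ATEV group received 15 µg/mL of ATEVs, which is read here as 5 µg/mL of EV-DNA, and the PBS group received PBS. Cells were harvested and reseeded the day after each exposure, and this was done 8 times. The other groups received EVs of non-activated T cells (NTEVs, 30 µg/mL) or ATEVs pretreated with a DNase (15 µg/mL). No label states that the 2 libraries of a group are independent cultures. P-values therefore measure library-to-library spread that may be technical, in a single clone.

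Cells exposed to interferon gamma, the main cytokine of activated T cells, or to foreign DNA in the cytosol are known to switch on antigen presentation genes through the interferon regulatory factors. The same stimuli are known to act beside NF-kB and the C/EBP factors, which drive acute phase and antimicrobial genes in epithelia. Pancreatic ductal tumour cells keep keratins and junctions of the duct epithelium, rest on a basement membrane, and can shift towards a mesenchymal or a basal-like squamous state. These programmes give the order of what follows.

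Total gene counts ranged from 34385326 to 52451398 over the 8 libraries. Of 42687 genes, 25199 had a count, 15197 passed edgeR's filter on low counts and were tested, and 12738 of these are protein-coding. Markers of ductal tumour cells were high, with Krt8 at 2526 and 2579 counts-per-million (CPM) in the PBS libraries and 2045 and 2623 CPM in the ATEV libraries, and 12 of 14 such markers reached 1 CPM, Cldn7 being among those below. T cell markers summed to 11.2 and 12.4 CPM with PBS and 11.3 and 8.88 CPM with ATEVs, almost all of it Lck and Trac, and Cd3d, Cd8a and Ifng had 0 counts in all 4 libraries. Myeloid and B cell markers summed to 207 and 174 CPM with PBS and 236 and 246 CPM with ATEVs, of which Mrc1 and Cd14 made up nearly all, while Adgre1, Itgax and Ms4a1 were at 0. The second library of each EV group stood apart in its proliferation genes, as described near the end. In bulk RNA, a change in few cells and a smaller change in many cells cannot be told apart.

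Most of the response by size was the interferon and antigen presentation programme, and a second layer of other genes lay around it. A list of interferon-stimulated and antigen presentation genes was set aside. It was chosen with earlier results of these data known, so its counts are descriptions. Of its 244 tested members 145 were higher with ATEVs and 0 lower at an adjusted p under 0.05 (edgeR's quasi-likelihood test, with 0 lower by DESeq2 too, and 0 before adjustment at p under 0.05). This compares with 3.05% of protein-coding genes higher and 1.09% lower (4.15% in either direction) and 3.52% higher and 1.66% lower of all genes tested. The members called had a median 13.2-fold rise, and the summed level of the list went from 1.06% and 1.09% of each PBS library to 3.10% and 2.69% of each ATEV library. Psmb8, an inducible proteasome subunit, and Casp1 are among its 6 members with the smallest p, and serve here only as the base for size. Where brackets follow a count of 0 by edgeR in a list below, they refer to that direction. They give how many members had an unadjusted p under 0.05 and how many DESeq2 called. Some lists are given without brackets, which does not mean that these numbers were 0. Casp1, the inflammasome protease, measured 0.175 and 0.122 CPM with PBS and 16.2 and 16.3 CPM with ATEVs, a log2 fold change of 6.71 ± 0.33 (SE, adjusted p = 0.000308).

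Outside the list, 12494 protein-coding genes were tested, of which 244 (1.95%) were higher and 139 (1.11%) lower with ATEVs. The rises were the larger. Of the 244, 177 changed at least 2-fold and 94 at least 4-fold, with a median of 2.83-fold, whereas of the 139, 74 changed at least 2-fold and 24 at least 4-fold, with a median of 2.03-fold. Some genes outside the list, such as Ubd and Ch25h, are also known to respond to interferon, so the list does not divide the programmes cleanly. Both ATEV libraries lay above both PBS libraries for 24.5% of protein-coding genes and below them for 26.9%, so that a gene whose groups do not overlap is common here. With 2 libraries against 2, an exact permutation test of a single gene cannot go below p = 0.333.

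**Figure D1:**
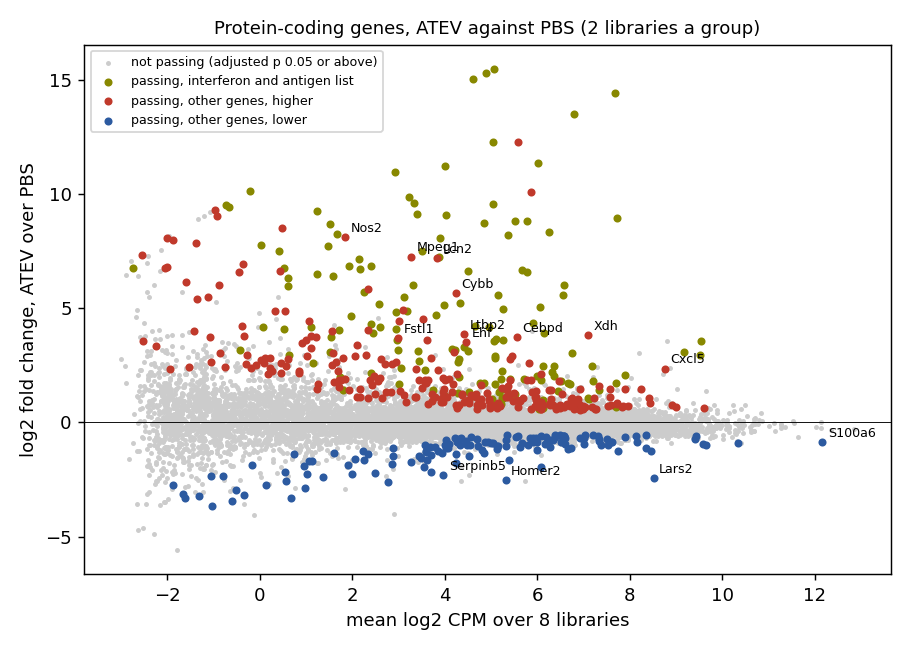
Log2 fold change of ATEV over PBS (y) against mean log2 CPM over the 8 libraries (x), 1 point per protein-coding gene tested. The 244 genes higher outside the interferon and antigen list (red) reach larger changes than the 139 genes lower (blue), and the most abundant gene of those lower is S100a6.

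Among the large rises outside the list were some antimicrobial effectors and enzymes that make oxidants, a grouping made here with no list of its own. Mpeg1, a pore-forming protein that macrophages use against engulfed bacteria, measured 0.272 and 0.182 CPM with PBS and 51.1 and 20.9 CPM with ATEVs. Both ATEV libraries were high and neither PBS library reached 1 CPM, and Mpeg1 rose by 7.25 ± 0.55 on the log2 scale (SE, adjusted p = 0.00136). Cybb, the catalytic subunit of the phagocyte NADPH oxidase that makes superoxide, went from 1.11 and 0.729 CPM to 47.7 and 47.0 CPM, a log2 fold change of 5.66 ± 0.50 (adjusted p = 0.00202). Noxa1, an activator of a related oxidase, measured 0.524 and 0.243 CPM with PBS and 1.75 and 3.22 CPM with ATEVs (adjusted p = 0.0433). Nos2, the inducible nitric oxide synthase, had 2 counts over both PBS libraries and 639 over both ATEV libraries, a ratio of 309 with a 95% counting interval from 85.1 to 2555. Xdh, which makes urate and can make superoxide, was already present at 29.8 and 23.3 CPM with PBS and reached 415 and 331 CPM with ATEVs, a 14.0-fold rise (adjusted p = 0.00406). Xdh was the most abundant of these 4 oxidant genes with PBS, and Nos2 was near 0 counts there.

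Secreted antimicrobial proteins were higher too, from a few counts with PBS. Lcn2, which binds bacterial iron carriers, had 3 counts with PBS and measured 2.64 and 8.49 CPM with ATEVs, a count ratio of 157 (95% counting interval 53.4 to 763). Slpi, a protease inhibitor of mucosal secretions, had 1 PBS count and 1.56 and 2.08 CPM with ATEVs, a ratio of 154 (27.2 to 6107). Other members were chosen after their values were seen. Naip5, a sensor of bacterial flagellin, had 2 PBS counts and 0.874 and 1.39 CPM with ATEVs, a ratio of 47.8 (12.9 to 401), and its close copy Naip6 measured 0.583 and 0.182 CPM with PBS and 3.91 and 4.95 CPM with ATEVs, though reads of these near-identical genes may be divided between them. Ubd, a ubiquitin-like modifier, and Ch25h, which makes an oxysterol with antiviral action, had 0 PBS counts and were at least 51.2-fold and 43.2-fold higher, taking 3 counts in the PBS group as the floor. Tlr2, a receptor for bacterial lipoproteins, rose 2.51-fold (adjusted p = 0.0319). Counting intervals and floors cover counting error only.

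The list of nitric oxide, superoxide and antioxidant genes had 54 tested members. Of these, 4 were higher (Cybb, Nos2, Noxa1 and Mgst1) and 0 lower (6 unadjusted, 2 by DESeq2), against 3.05% and 1.09% of all protein-coding genes. The list's median log2 fold change was 0.07, against -0.02 for all protein-coding genes. The broad antioxidant system thus had few calls, and the calls were in the producers of oxidants and in Mgst1, a membrane glutathione transferase that went from 37.2 and 24.1 CPM to 118 and 150 CPM (4.37-fold, adjusted p = 0.0368). Of the 12 antimicrobial and oxidant genes above, only Cybb and Mpeg1 still passed without PBS library 1 or without PBS library 2, while 10 passed without ATEV library 1 and 8 without ATEV library 2 (highest adjusted p 0.246 over these fits). Noxa1 lost its call with an offset for GC content (adjusted p = 0.0523).

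Promoter sequence is shown for genes whose level turned from near 0 to high, so that the letters around their start sites can be read beside the values. For 9993 tested genes with an entry in RefSeq's table (GRCm38.p6), the 250 bases before each listed start were searched. Both strands were searched for short strings known as binding motifs. These genes had 12784 promoters, since a gene can have several starts. Shares are over promoters, so such a gene counts more than once. The interferon-stimulated response element, searched as GAAA, any 2 bases and GAAA, occurred in 2.7% of all promoters, in 31.1% of those of list genes that were higher, in 4.27% of those of the other higher genes and in 0.82% of those of lower genes. The C/EBP string TTGCNNAA occurred in 7.64%, 11.9%, 11.1% and 6.56% of the same sets, in the same order. The gamma-activated site TTCNNNGAA stood in 5.96%, 14.8%, 8.12% and 9.02% of them. For the NF-kB string (GGG, any 2 bases and TTTCC) the shares were 1.59%, 5.93%, 2.99% and 0.82%. The TEAD string GGAATG was found in 10.9%, 13.3%, 14.5% and 13.9%. Shares are descriptions of windows, a match is not a binding site, and a missing match says only that the letters are not in the window. Capitals mark only the string named on each line, on the strand of the gene, and none of those overlaps a match to another motif searched. The second Cybb window also holds a match to the AP-1 string given further on, at -139 to -133, left in lower case.
Cybb (chrX:9469325-9469373, minus strand, response element from base -29 to -20 of the start): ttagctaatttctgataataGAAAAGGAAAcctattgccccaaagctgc
Cybb (chrX:9469419-9469468, minus strand, response element on the other strand, -124 to -115): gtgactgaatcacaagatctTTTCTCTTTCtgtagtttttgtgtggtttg
Tnfrsf14 (chr4:154928112-154928161, minus strand, response element on the other strand, -64 to -55): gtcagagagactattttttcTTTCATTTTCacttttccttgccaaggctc
Lcn2 (chr2:32387928-32387975, minus strand, C/EBP string, -216 to -209): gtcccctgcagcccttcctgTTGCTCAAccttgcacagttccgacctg
Slpi (chr2:164356721-164356757, minus strand, C/EBP string on the other strand, -241 to -234): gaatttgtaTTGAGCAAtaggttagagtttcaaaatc
Vnn3 (chr10:23851417-23851461, plus strand, C/EBP string, -25 to -18): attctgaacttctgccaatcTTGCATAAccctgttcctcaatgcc

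Several transcription factors were higher, 3 of them of the C/EBP family. Cebpd, a factor of the acute phase response, measured 5.28 and 6.50 CPM with PBS and 90.9 and 66.3 CPM with ATEVs, a 13.4-fold rise (log2 3.74 ± 0.39 SE, adjusted p = 0.00334). Cebpb went from 19.0 and 21.8 CPM to 58.4 and 65.2 CPM (3.03-fold, adjusted p = 0.0143), and Cebpa, chosen after its values were seen, from 30.5 and 17.8 CPM to 78.7 and 97.6 CPM (3.65-fold, adjusted p = 0.0221). All 3 had groups that did not overlap, and all 3 share their position with a gene on the opposite strand (Spidr, Tmem189 and Gm45091), from which the counts cannot be told apart without the strand setting. Pou2f2, the octamer factor best known from B cells, measured 0.816 and 0.425 CPM with PBS and 12.9 and 16.9 CPM with ATEVs, a log2 fold change of 4.54 ± 0.42 (adjusted p = 0.00244), whereas the B cell marker Ms4a1 had 0 counts in all 4 libraries. Ehf, an ETS factor of epithelia, rose from 4.39 and 3.47 CPM to 40.3 and 49.0 CPM. Klf13, a zinc finger factor, rose 1.78-fold (adjusted p = 0.0254).

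Few developmental factors were called. Of 99 tested homeobox, SOX, FOX, GATA, KLF and ETS factors, 46 had both ATEV libraries above both PBS libraries and 20 had both below. The shares of all protein-coding genes were 24.5% and 26.9%. The median log2 fold change of the 99 was 0.26, and 0.03 with the GC offset. By call, 2 were higher (Ehf and Klf13) and 2 lower, near the 3.05% and 1.09% of all protein-coding genes. The lower genes were Foxp2, a forkhead repressor, which fell from 1.40 and 1.64 CPM to 0.230 and 0.160 CPM (7.69-fold lower, adjusted p = 0.00915), and Onecut3, a homeobox factor, from 15.9 and 16.1 CPM to 6.14 and 7.16 CPM (2.40-fold lower, adjusted p = 0.00724). Of the 8 factors above, Ehf and Pou2f2 alone passed without either PBS library, 8 passed without ATEV library 1, and 4 passed without ATEV library 2, where Cebpa, Cebpb, Foxp2 and Klf13 did not (highest adjusted p 0.195 over these fits). Cebpb lost its call with the GC offset (adjusted p = 0.089).

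Several cytokine and receptor genes and 3 regulators of NF-kB were higher with ATEVs. Beside the counts below, 3.05% of all protein-coding genes were higher and 1.09% lower. Of 32 tested chemokines, interleukins and colony-stimulating factors, 8 were higher and 0 lower (1 unadjusted, 0 by DESeq2) with a median log2 fold change of 0.82, but 5 of the 8 (Csf1, Cxcl9, Cxcl10, Ccl7 and Ccl2) also stand in the interferon list. The others were Cxcl5, Ccl8 and Cxcl3. Cxcl5, a neutrophil attractant and the most abundant of them, measured 75.0 and 104 CPM with PBS and 550 and 368 CPM with ATEVs (5.14-fold, adjusted p = 0.0272). Ccl8, which attracts monocytes, went from 0.117 and 0.182 CPM to 2.62 and 1.48 CPM (adjusted p = 0.01). Csf1, the growth factor of macrophages, went from 53.9 and 54.8 CPM to 178 and 203 CPM (3.50-fold, adjusted p = 0.0163).

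Regulators that curb or shape NF-kB output passed in 3 of 31 tested members upwards and 0 downwards (1 unadjusted, 1 by DESeq2). Nfkbiz, an atypical IkB that opens secondary response genes such as Lcn2, rose from 43.8 and 47.8 CPM to 149 and 101 CPM (2.73-fold, adjusted p = 0.0141). Zc3h12a, a nuclease that degrades cytokine mRNA, rose 2.87-fold (adjusted p = 0.0386) and Tnip3, an inhibitor of NF-kB signalling, 2.65-fold (adjusted p = 0.0246). The median log2 fold change of the 31 was 0.09, against -0.02 for all protein-coding genes. Upwards, 8 of the 31 had an unadjusted edgeR p under 0.05. Both ATEV libraries lay above both PBS libraries for 12 and below them for 6. Of all protein-coding genes, 24.5% and 26.9% lay so, and 3.05% were called higher and 1.09% lower.

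Among 41 tested cytokine receptors 9 were higher and 0 lower (1 unadjusted, 1 by DESeq2), 3 of them (Il15ra, Fas and Ifnar2) also in the interferon list. For this list and the complement list below, the shares of all protein-coding genes were 3.05% higher and 1.09% lower. Tnfrsf14, the receptor of LIGHT, went from 0.505 and 0.608 CPM to 9.93 and 7.69 CPM (15.9-fold, adjusted p = 0.00355), and its promoter window is among those printed above. Il15ra, which presents interleukin 15 to lymphocytes, went from 0.680 and 0.729 CPM to 12.8 and 5.91 CPM (13.2-fold, adjusted p = 0.00526). Osmr, the oncostatin M receptor, chosen after its values were seen, went from 2.35 and 1.76 CPM to 24.2 and 27.0 CPM (12.4-fold, adjusted p = 0.0177), and Il13ra1 rose 3.30-fold (adjusted p = 0.00537). Complement and acute phase genes had 7 of 26 members higher and 0 lower (0 unadjusted, 0 by DESeq2) with a median log2 fold change of 1.58, and 6 of the 7 stand in the interferon list, Lcn2 being the exception. That median was 2.03 without ATEV library 1 and 0.75 without ATEV library 2, and the summed level of the list was 6246 and 4167 CPM with PBS and 3147 and 6965 CPM with ATEVs, so the groups overlapped in the sum. None of the 10 cytokine, regulator and receptor genes given with values passed without PBS library 1 or without PBS library 2 (highest adjusted p 0.225), and 8 passed without either ATEV library, Cxcl5 and Zc3h12a not passing without ATEV library 1 and Csf1 and Zc3h12a not without ATEV library 2. Zc3h12a also lost its call with the GC offset (adjusted p = 0.0748).

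A few matrix and mesenchymal genes were higher, Ltbp2 and Fstl1 among them. Ltbp2, a microfibril protein related to the latent TGF-beta binding proteins, measured 1.75 and 1.58 CPM with PBS and 22.03 and 26.7 CPM with ATEVs, a log2 fold change of 3.87 ± 0.19 (SE) with adjusted p = 0.000308. Fstl1, a secreted glycoprotein that binds BMP and TGF-beta family ligands, went from 2.25 and 1.82 CPM to 29.0 and 23.9 CPM (12.9-fold, adjusted p = 0.00264). Acta2, smooth muscle actin, went from 5.17 and 5.99 CPM to 38.5 and 39.8 CPM (7.03-fold, adjusted p = 0.00833), with libraries of a group close together. Col5a1, a fibril-nucleating collagen, rose 5.05-fold (adjusted p = 0.00389), and Fbn1, the main microfibril protein, rose from 0.117 and 0.152 CPM to 3.43 and 1.58 CPM (18.6-fold, adjusted p = 0.0278). Prrx1, a mesenchymal homeobox factor, rose 2.76-fold (adjusted p = 0.0447). Prg4, the joint lubricant lubricin, measured 0.699 and 1.00 CPM with PBS and 7.79 and 20.5 CPM with ATEVs, a wide spread (adjusted p = 0.0345).

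Of 26 tested mesenchymal genes, 5 were higher (Fstl1, Prrx1, Fbn1, Pdpn and Acta2) and 0 lower (1 unadjusted, 0 by DESeq2), with a median log2 fold change of 0.42. For this list and the next, the shares of all protein-coding genes were 3.05% higher and 1.09% lower. Of 49 interstitial matrix genes, 4 were higher and 1 lower, the last being Col6a2, a beaded-filament collagen, at 15.7 and 10.6 CPM with PBS and 5.47 and 4.11 CPM with ATEVs (2.74-fold lower, adjusted p = 0.0228). The summed level of the interstitial list was 7832 and 5256 CPM with PBS and 4570 and 7605 CPM with ATEVs, so the groups overlapped. The mesenchymal median differed between the ATEV libraries, at 0.03 in library 1 and 0.60 in library 2 relative to the PBS mean (log2 of CPM plus 0.5), and the fitted median was 0.66 without ATEV library 1, 0.03 without ATEV library 2, 0.60 without PBS library 1 and 0.13 without PBS library 2. Markers of fibroblasts and endothelium summed to 11.5 and 10.5 CPM with PBS and 42.7 and 49.4 CPM with ATEVs, and Acta2 was most of that sum. Of the 7 tested, 2 were higher, Acta2 and Pdpn, a mucin-type glycoprotein, the latter at 0.253 and 0.182 CPM with PBS and 0.874 and 1.51 CPM with ATEVs. The collagens Col1a1 and Col3a1 lay between 2.13 and 4.77 CPM and at up to 1.78 CPM, the highest of each being ATEV library 2. The markers Dcn, Lum and Thy1 had 0 counts in all 4 libraries and Col1a2 reached at most 0.0228 CPM. The part of these markers in the mesenchymal and matrix counts was not tested. Ltbp2 and Fstl1 passed without each library in turn, while 3 and 2 of the 8 genes given passed without PBS library 1 and 2, and 5 passed without either ATEV library (highest adjusted p 0.243). Prrx1 and Col6a2 lost their calls in each of these fits.

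Secreted signals of development changed in a few members each. Bmp2, a BMP ligand, went from 25.2 and 40.8 CPM to 81.9 and 88.7 CPM (2.59-fold, adjusted p = 0.022). Its classic targets Id1, which blocks differentiation factors, and Id3 were higher too, Id1 going from 70.1 and 106 CPM to 248 and 235 CPM (2.74-fold, adjusted p = 0.0207) and Id3 from 54.8 and 72.4 CPM to 141 and 115 CPM (2.02-fold, adjusted p = 0.0251). Smad6, an inhibitor of BMP signalling, rose 2.14-fold (adjusted p = 0.0343) and Tgfb1, a TGF-beta ligand, 1.68-fold (adjusted p = 0.0386), both chosen after their values were seen. Pmepa1, an inhibitor induced by TGF-beta and also chosen so, fell from 272 and 253 CPM to 127 and 160 CPM (1.83-fold lower, adjusted p = 0.0368). In all, 6 of 53 tested TGF-beta and BMP genes were higher and 1 lower, with a median log2 fold change of 0.14. Of all protein-coding genes, 3.05% were higher and 1.09% lower.

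Other signals were isolated members of their families. For the counts that follow, 3.05% of all protein-coding genes were higher and 1.09% lower. Rspo3, an amplifier of Wnt signalling, was the only 1 of 42 tested Wnt genes called by edgeR (DESeq2 called 2 higher and 3 lower), going from 0.0777 and 0.213 CPM to 4.21 and 3.90 CPM (29.2-fold, adjusted p = 0.00247). Notch1 was the only 1 of 31 Notch genes called by edgeR (DESeq2 called 3 higher), at 63.3 and 49.6 CPM with PBS and 120 and 117 CPM with ATEVs (2.1-fold, adjusted p = 0.0207). Of 58 axon guidance genes 2 were higher and 2 lower. The ligand Slit2 rose from 9.23 and 11.1 CPM to 37.2 and 27.7 CPM (3.20-fold, adjusted p = 0.0105), while its receptor Robo1 fell from 16.2 and 14.3 CPM to 5.31 and 5.98 CPM (2.70-fold lower, adjusted p = 0.0143). The ligand Ntn1 was higher (5.19-fold, adjusted p = 0.0491) and Sema5a lower (2.50-fold lower, adjusted p = 0.0291). Pros1, a ligand of TAM receptors, rose 2.15-fold (adjusted p = 0.0278), and Nuak2, a YAP target kinase, 2.04-fold (adjusted p = 0.022). Of these 14 genes, Rspo3 passed without each library in turn, and 2, 2, 4 and 3 of the 14 passed without PBS library 1, PBS library 2, ATEV library 1 and ATEV library 2 (highest adjusted p 0.257). Id3, Smad6, Tgfb1 and Ntn1 lost their calls with the GC offset (highest adjusted p 0.114).

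Genes of cell death were called upwards in 9 of 45 tested members and downwards in 0 (2 unadjusted, 0 by DESeq2). The shares of all protein-coding genes were 3.05% higher and 1.09% lower. Of the 9, 6 stand in the interferon list. Zbp1, a sensor of Z-form nucleic acid that starts necroptosis, went from 0.0777 and 0.0608 CPM to 50.8 and 31.0 CPM (log2 9.12 ± 0.61 SE, adjusted p = 0.000859). Fas, the death receptor for Fas ligand of T cells, went from 0.311 and 0.547 CPM to 13.1 and 7.94 CPM (25.0-fold, adjusted p = 0.00247). Casp12, an inflammatory caspase, went from 11.6 and 8.78 CPM to 40.8 and 41.1 CPM (4.01-fold, adjusted p = 0.0148). The pore former Gsdmd, chosen after its values were seen, rose from 132 and 154 CPM to 250 and 221 CPM (1.64-fold, adjusted p = 0.0363). Bbc3, a p53 target that opens the mitochondrial route, was at 8.86 and 8.84 CPM with PBS and 16.7 and 17.8 CPM with ATEVs (1.95-fold, adjusted p = 0.0354). Bbc3 and Gsdmd lost their calls with the GC offset (adjusted p 0.812 and 0.132). Casp1, Zbp1 and Fas passed without each library, whereas Bbc3 and Gsdmd passed in none of these fits (highest adjusted p 0.228).

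The metabolic genes called higher were scattered enzymes and carriers. Vnn3, a pantetheinase, went from 0.486 and 0.395 CPM to 12.1 and 15.2 CPM (30.5-fold, adjusted p = 0.00183), and its relative Vnn1 from 220 and 261 CPM to 440 and 429 CPM (1.81-fold, adjusted p = 0.0374). Beside Xdh in purine breakdown, the guanine deaminase Gda rose from 110 and 115 CPM to 288 and 327 CPM (2.74-fold, adjusted p = 0.00791). H6pd, which makes NADPH in the endoplasmic reticulum, rose 2.1-fold (adjusted p = 0.0223). Hk2, the inducible hexokinase, rose from 121 and 127 CPM to 326 and 219 CPM (2.20-fold, adjusted p = 0.0365). It was the only 1 of 52 tested glycolysis and hypoxia genes called by edgeR, whereas DESeq2 called 5 higher. Of those 52, 28 had both ATEV libraries above both PBS libraries, against 24.5% of all protein-coding genes. The median log2 fold change of the 52 was 0.55, and its spread between libraries is given further on.

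Ion and metal handling changed in few genes. Mt3, a metallothionein, went from 2.64 and 3.28 CPM to 18.4 and 18.6 CPM (6.26-fold, adjusted p = 0.014), and Slc39a4, a zinc importer, rose 1.76-fold (adjusted p = 0.0427). Slc4a11, a borate transporter relative that carries protons, fell from 10.8 and 9.03 CPM to 1.22 and 2.08 CPM (6.0-fold lower, adjusted p = 0.00424). The adjacent cation channel genes Tmem176a and Tmem176b rose 3.06-fold (adjusted p = 0.00984) and 2.78-fold (adjusted p = 0.0149), and they overlap on opposite strands, so their counts may share reads. Soat1, which esterifies cholesterol, rose 1.80-fold (adjusted p = 0.0444), Elovl7, a fatty acid elongase, fell 1.85-fold (adjusted p = 0.0344), and A4galt, a glycolipid synthase, rose 13.5-fold with its ATEV libraries at 2.64 and 9.29 CPM (adjusted p = 0.0295). Of the 14 metabolic and transport genes, Mgst1 included, 4, 2, 9 and 7 passed without PBS library 1, PBS library 2, ATEV library 1 and ATEV library 2 (highest adjusted p 0.259), with Vnn3 and Slc4a11 passing in all 4. Elovl7, Hk2 and Slc39a4 lost their calls with the GC offset (highest adjusted p 0.0799).

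**Figure D2:**
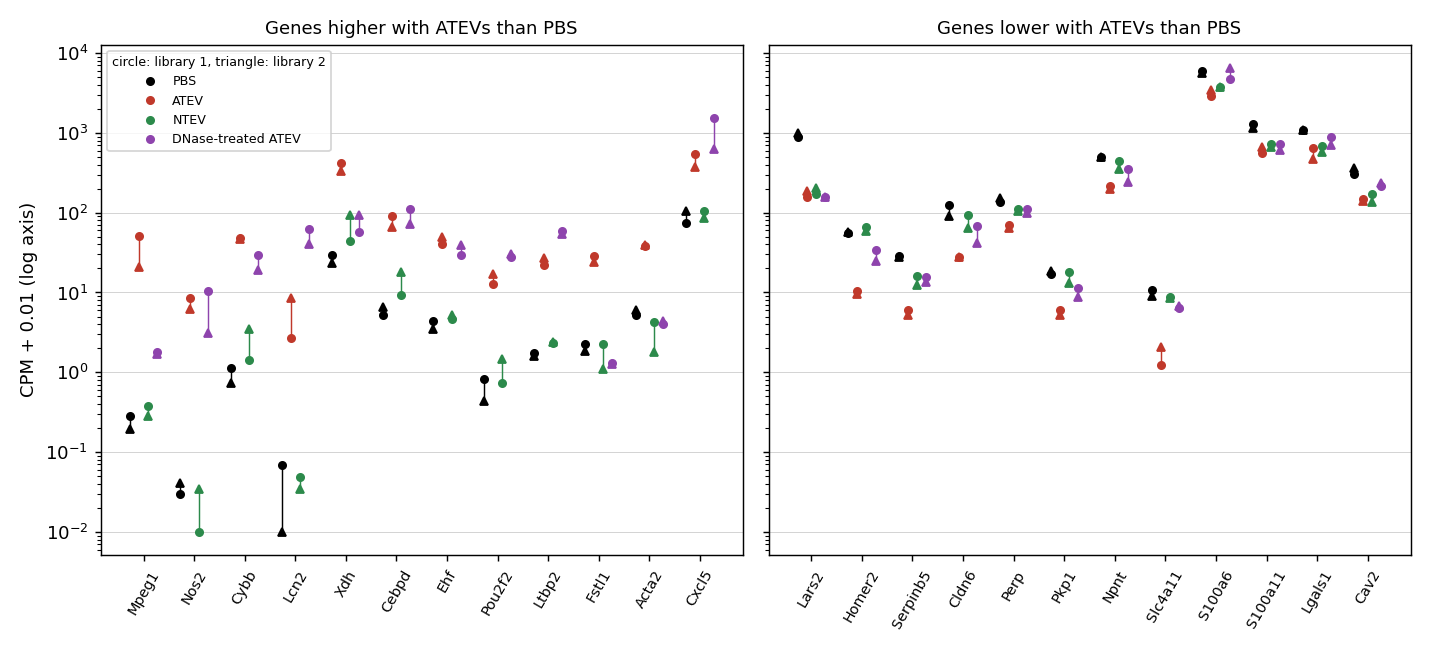
CPM plus 0.01 on a log axis for 12 genes higher (left) and 12 genes lower (right) with ATEVs, with a circle for library 1, a triangle for library 2 and colours for the 4 groups. Mpeg1, Fstl1 and Acta2 were high in the ATEV group alone, while Lars2 was low in all 3 EV groups, at 159 to 207 CPM against 879 and 1000 CPM with PBS.

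Among the genes that fell were members of junctions, keratins and the basement membrane. Serpinb5, the epithelial serpin maspin, measured 28.4 and 27.6 CPM with PBS and 6.05 and 5.18 CPM with ATEVs (4.98-fold lower, adjusted p = 0.00197). Perp, a desmosomal protein that is also a p53 target, fell from 137 and 151 CPM to 69.2 and 63.4 CPM (2.17-fold lower, adjusted p = 0.00444). Pkp1, a desmosomal plaque protein, fell from 16.8 and 18.5 CPM to 6.0 and 5.23 CPM (3.14-fold lower, adjusted p = 0.0101). Cldn6, an embryonic tight junction claudin, fell from 124 and 89.8 CPM to 27.5 and 27.9 CPM (3.86-fold lower, adjusted p = 0.0143), with no overlap between groups. Tspan1, an epithelial tetraspanin, fell 3.36-fold (adjusted p = 0.0153), and Krt14, a basal keratin, fell from 14.7 and 37.6 CPM to 6.81 and 4.91 CPM (adjusted p = 0.0491), its PBS libraries lying far apart.

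As whole lists, most members were not called. Over all protein-coding genes, 3.05% were higher and 1.09% lower. The lower shares of the junction and basement membrane lists were above that. Of 71 tested adhesion, junction and keratin genes, 7 were lower, 2 were higher (Ehf and Ppl) and the median log2 fold change was -0.04. Of 27 basement membrane genes, 3 were lower and 0 higher (4 unadjusted, 0 by DESeq2), with a median of 0.16 that was 0.47 without ATEV library 1, -0.20 without ATEV library 2 and -0.05 with the GC offset. Npnt, an integrin ligand of the basement membrane, fell from 493 and 497 CPM to 214 and 200.4 CPM (2.39-fold lower, adjusted p = 0.0209), and Col4a4, a type IV collagen chain, fell from 1.83 and 1.16 CPM to 0.184 and 0.479 CPM (adjusted p = 0.0491). The mucin-branching enzyme Gcnt3 fell 2.08-fold (adjusted p = 0.0328) and was the only 1 of 33 mucin and trefoil genes called by edgeR, whereas DESeq2 called 3 higher and 6 lower. Of the 9 epithelial and basement membrane genes with values, 3, 1, 4 and 5 passed without PBS library 1, PBS library 2, ATEV library 1 and ATEV library 2, with Serpinb5 passing in all 4 (highest adjusted p 0.237). Krt14 lost its call with the GC offset (adjusted p = 0.051).

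The string TGANTCA, read by AP-1, occurred in 4.92% of all promoters and in 15.6% of those of list genes that were higher. It occurred in 6.41% of those of other higher genes and in 12.3% of those of lower genes. The last share is 15 of 122 promoters, which belong to 93 genes. These 4 windows are shown from genes that fell, with the string in capitals on the strand of the gene.
Serpinb5 (chr1:106861015-106861061, plus strand, -140 to -134): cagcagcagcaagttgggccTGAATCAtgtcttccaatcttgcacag
S100a11 (chr3:93520438-93520484, plus strand, -38 to -32): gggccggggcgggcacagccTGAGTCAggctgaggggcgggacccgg
Emp1 (chr6:135362766-135362812, plus strand, -145 to -139): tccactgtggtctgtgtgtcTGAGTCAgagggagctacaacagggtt
Cav2 (chr6:17281073-17281119, plus strand, -92 to -86): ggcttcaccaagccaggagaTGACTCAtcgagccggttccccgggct

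Other large falls were in genes of varied function. Homer2, a scaffold of calcium signalling complexes, fell from 56.2 and 57.7 CPM to 10.4 and 9.47 CPM (5.74-fold lower, adjusted p = 0.00105). Lars2, which charges mitochondrial leucine tRNA, went down from 879 and 1000 CPM to 159 and 186 CPM (5.44-fold lower, adjusted p = 0.000836). Lars2 was the only 1 of 38 tested tRNA synthetase genes called by edgeR, whereas DESeq2 called 1 higher and 1 lower. S1pr1, a sphingosine phosphate receptor, went from 3.59 and 5.41 CPM to 0.966 and 0.753 CPM (5.21-fold lower, adjusted p = 0.0209). The formin Fmnl1 fell 3.57-fold (adjusted p = 0.00606), Btbd11 3.84-fold (adjusted p = 0.0169), the adaptor Sh2d1b1 4.68-fold (adjusted p = 0.0259), the calcium sensor Cracr2a 4.74-fold (adjusted p = 0.0365) and Tmem246 3.67-fold (adjusted p = 0.00915). All 5 lay below 20 CPM with PBS. Of the 8 genes, 4, 2, 6 and 4 passed without PBS library 1, PBS library 2, ATEV library 1 and ATEV library 2, Lars2 and Homer2 in all 4 (highest adjusted p 0.168).

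Beside Lars2, the abundant genes that fell included small calcium-binding, membrane and housekeeping proteins, with falls of 1.52-fold to 2.34-fold among the 10 given. S100a6, an EF-hand calcium-binding protein, fell from 5903 and 5667 CPM to 2872 and 3441 CPM (1.83-fold lower, adjusted p = 0.0447). Its relative S100a11 fell from 1288 and 1158 CPM to 562 and 665 CPM (1.99-fold lower, adjusted p = 0.0163), and the galectin Lgals1 from 1083 and 1086 CPM to 654 and 475 CPM (1.92-fold lower, adjusted p = 0.0467). Emp1, an epithelial membrane protein, fell from 1721 and 2106 CPM to 996 and 1062 CPM (1.86-fold lower, adjusted p = 0.0371). Both caveolins fell, Cav2 from 305 and 368 CPM to 148 and 140 CPM (2.34-fold lower, adjusted p = 0.00866) and Cav1, chosen after its values were seen, from 248 and 268 CPM to 135 and 123 CPM (2.0-fold lower, adjusted p = 0.0344). Ppp1cb, a phosphatase catalytic subunit, fell 1.82-fold (adjusted p = 0.00894). Calmodulin gene Calm2, cyclophilin gene Ppia and ribosomal gene Rps29 fell 1.52-fold, 1.64-fold and 2.0-fold (adjusted p 0.0478, 0.0376 and 0.0127). All 3 have near-identical processed copies that make their counts uncertain. With median-of-ratios scaling Calm2 and S100a6 lost their calls, and with upper quartile scaling S100a6 did. The PBS and ATEV libraries alone kept 5 of the 10 calls, as did protein-coding genes alone. Calm2, Emp1, Lgals1, Ppia and S100a6 lost theirs in both. Of the 10 genes, 1, 0, 2 and 2 passed without PBS library 1, PBS library 2, ATEV library 1 and ATEV library 2 (highest adjusted p 0.24), and Calm2 and Lgals1 lost their calls with the GC offset (highest adjusted p 0.076).

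Whole pathways of growth and energy showed small shared displacements with hardly a gene called. Of 82 ribosomal protein genes, 61 had both ATEV libraries below both PBS libraries, with a median log2 fold change of -0.24, with Rps29 alone called lower and 0 called higher (2 unadjusted, 0 by DESeq2). Of 78 nuclear-encoded respiratory chain genes, 40 lay so, with a median of -0.17 and Sdhd alone called. Glycolysis and hypoxia genes had 28 of 52 members with both ATEV libraries above both PBS libraries and a median of 0.55, and immediate early and ERK feedback genes 30 of 57 with a median of 0.50 and Ier5l alone called by edgeR (8 higher by DESeq2). The background of such non-overlap was 24.5% upwards and 26.9% downwards. The immediate early rise was not confined to ATEVs. Relative to the PBS mean (log2 of CPM plus 0.5), that list's median was 0.27 and 0.65 in ATEV libraries 1 and 2. NTEV libraries stood at 0.31 and 0.84, DNase-treated libraries at 0.47 and 0.95, and PBS libraries at -0.16 and 0.14. Some members lay far apart between PBS libraries 1 and 2, such as Fos (-2.83 and 0.90) and Egr1 (-1.51 and 0.72). Others, such as Spry2 (-0.03 and 0.03), did not.

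**Figure D3:**
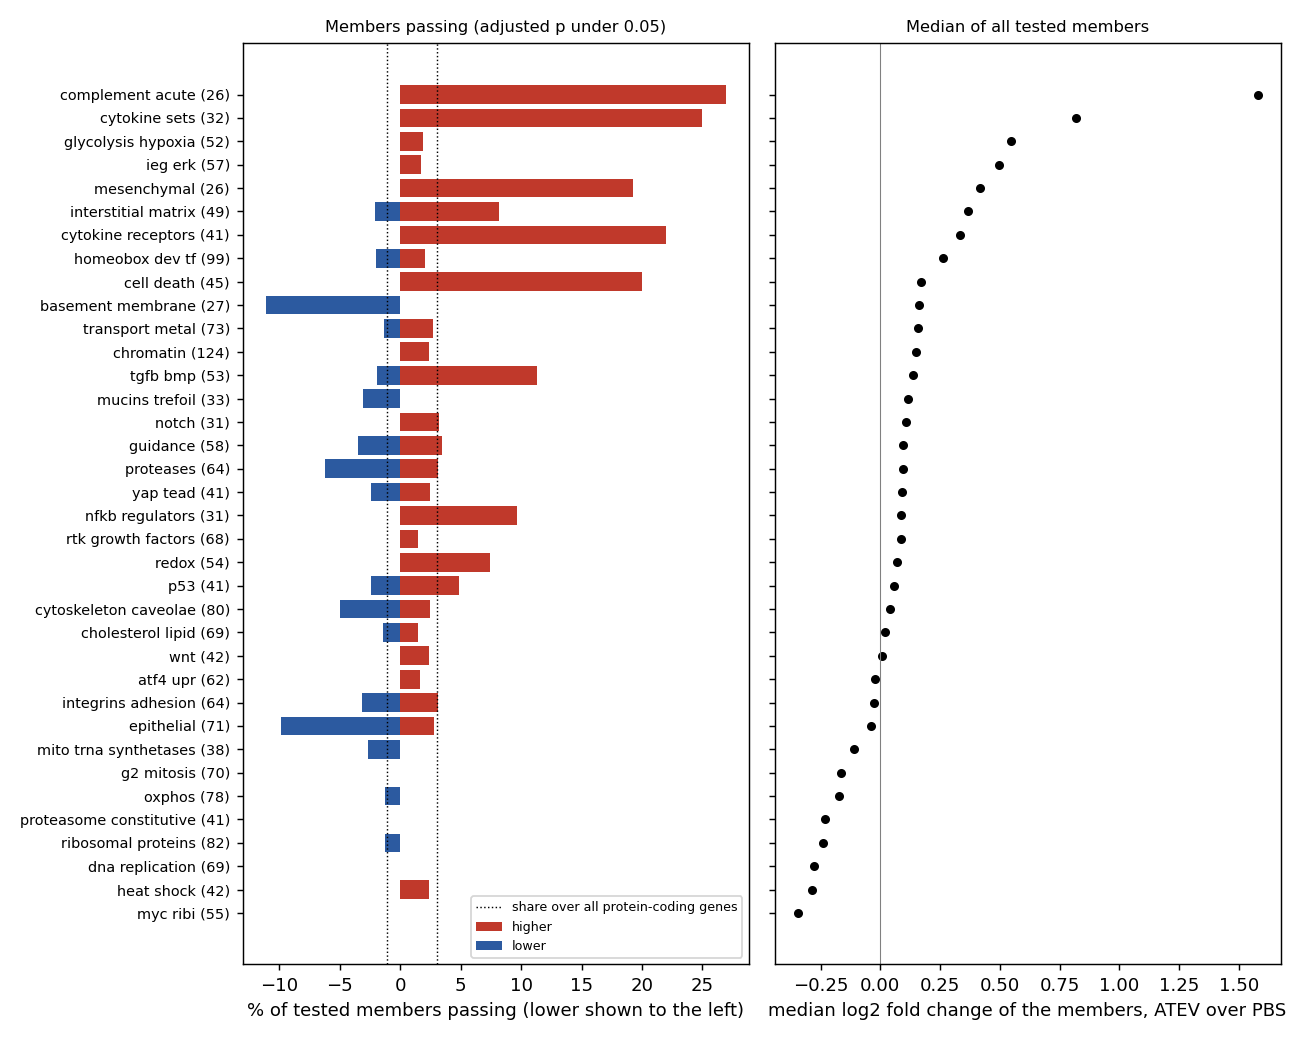
Share of tested members called higher (right) or lower (left) for 36 gene lists, with the number tested in brackets and dotted lines at the 3.05% and 1.09% of all protein-coding genes, beside the median log2 fold change of each list's tested members. Complement and cytokine lists had the highest medians (1.58 and 0.82), and lists of ribosome biogenesis and DNA replication low medians with 0 called.

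Proliferation genes separated the ATEV libraries from each other. The 69 tested DNA replication genes had a median of 0.19 in ATEV library 1 and -0.96 in ATEV library 2, relative to the PBS mean on the log2 scale of CPM plus 0.5. In ATEV library 2 all 69 lay below the PBS mean, and in ATEV library 1 only 16 did. The 70 G2 and mitosis genes had medians of 0.19 and -0.66 and the 55 Myc and ribosome biogenesis genes -0.08 and -0.90. Glycolysis and hypoxia genes went the other way, at 0.12 in library 1 and 0.81 in library 2. The other EV groups had the same layout, DNA replication genes standing at -0.26 and -1.15 in NTEV libraries 1 and 2 and at -0.30 and -0.98 in the libraries of DNase-treated ATEVs, while the PBS libraries stood at -0.15 and 0.14.

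No DNA replication, mitosis or ribosome biogenesis gene was called with edgeR in either direction. The members with an unadjusted p under 0.05 numbered 0, 0 and 3, and those called by DESeq2 0, 0 and 2, all of them lower. Without ATEV library 1 the fitted median of the replication genes was -0.92, and without ATEV library 2 it was 0.19, so its sign depends on which library is kept. That of the mitosis genes was -0.62 and 0.19. The glycolysis median was 0.86 and 0.14 in the same fits, and that of the immediate early genes 0.78 and 0.28. The ribosomal protein median was -0.25 and -0.14.

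**Figure D4:**
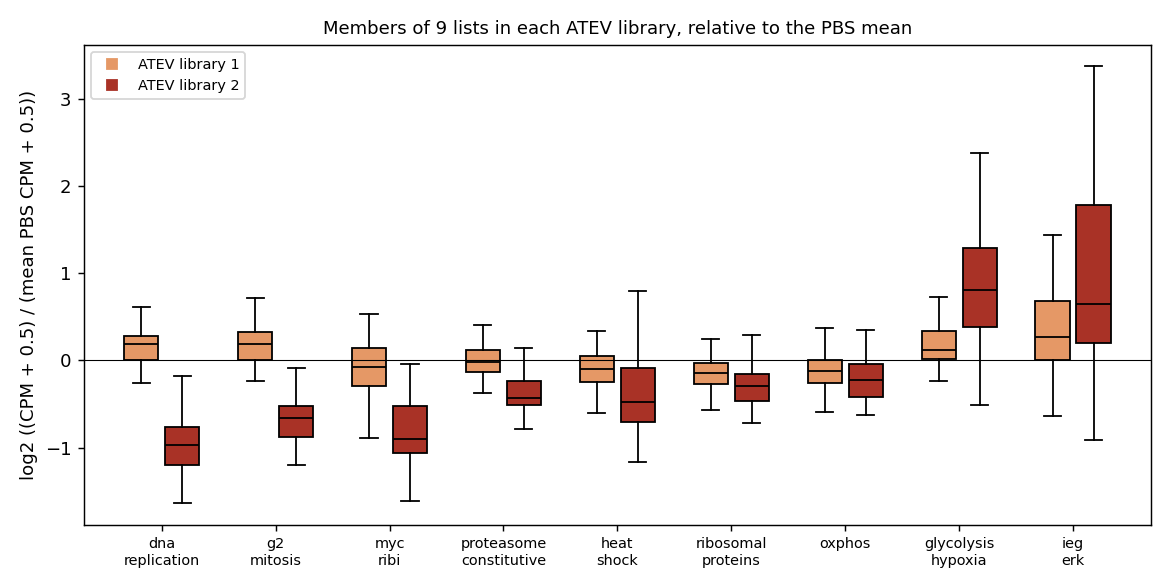
Log2 ratio of each member's CPM plus 0.5 to the PBS mean plus 0.5, for 9 lists in ATEV library 1 (light) and ATEV library 2 (dark), with boxes from the lower to the upper quartile, a line at the median and whiskers to at most 1.5 times the box height. DNA replication genes lie above 0 at the median in library 1 (0.19) and below it in library 2 (-0.96).

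Few chromatin regulators were called by edgeR. Of 124 tested chromatin enzymes and remodellers, 3 were higher and 0 lower (7 unadjusted, 0 by DESeq2), in calls no more than the background of 3.05%. DESeq2 called 11 higher. Upwards, 28 of the 124 had an unadjusted edgeR p under 0.05, against 1402 of 12738 protein-coding genes. Both ATEV libraries lay above both PBS libraries for 47 and below them for 20. The shares of all protein-coding genes were 24.5% and 26.9%. The median log2 fold change of the 124 was 0.15, and 0.05 with the GC offset. Cbx7, a Polycomb reader, went from 7.19 and 6.38 CPM to 13.5 and 18.6 CPM (2.36-fold, adjusted p = 0.0269). Hdac7, a class IIa deacetylase, went from 139 and 132 CPM to 234 and 232 CPM (1.72-fold, adjusted p = 0.0134). Both overlap a protein-coding gene on the opposite strand (Apobec3 and Slc48a1), so their counts may share reads. Outside that list, Epb41l1, a membrane skeleton protein, rose from 44.5 and 44.3 CPM to 106 and 130 CPM (2.65-fold, adjusted p = 0.00636). Dync1h1, the dynein heavy chain, rose 1.71-fold (adjusted p = 0.0259) and Prrc2c, a proline-rich RNA-binding protein, 1.60-fold (adjusted p = 0.0214). None of the 5 passed without PBS library 1 or 2, and 3 and 2 passed without ATEV library 1 and 2 (highest adjusted p 0.198). Hdac7 and Dync1h1 lost their calls with the GC offset (highest adjusted p 0.0769).

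Fold changes followed the GC content of transcripts across all protein-coding genes. Spearman's rho across 12732 genes was 0.37, as a description over genes that share libraries, and that with transcript length was 0.07. In the quintile of genes with the lowest GC content the median log2 fold change of ATEV over PBS was -0.27, and in the quintile with the highest it was 0.22. The same medians were -0.30 and 0.24 for NTEV and -0.23 and 0.22 for DNase-treated ATEV, which share the PBS libraries. Outside the interferon list, 30 genes were higher and 71 lower in the lowest quintile, against 88 higher and 13 lower in the highest. The median transcript GC content was 53.6% for the 244 higher genes, 45.0% for the 139 lower genes and 50.8% for all. With an offset for GC content, 154 of the 244 and 84 of the 139 kept their calls, and 136 of the 145 list genes did.

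**Figure D5:**
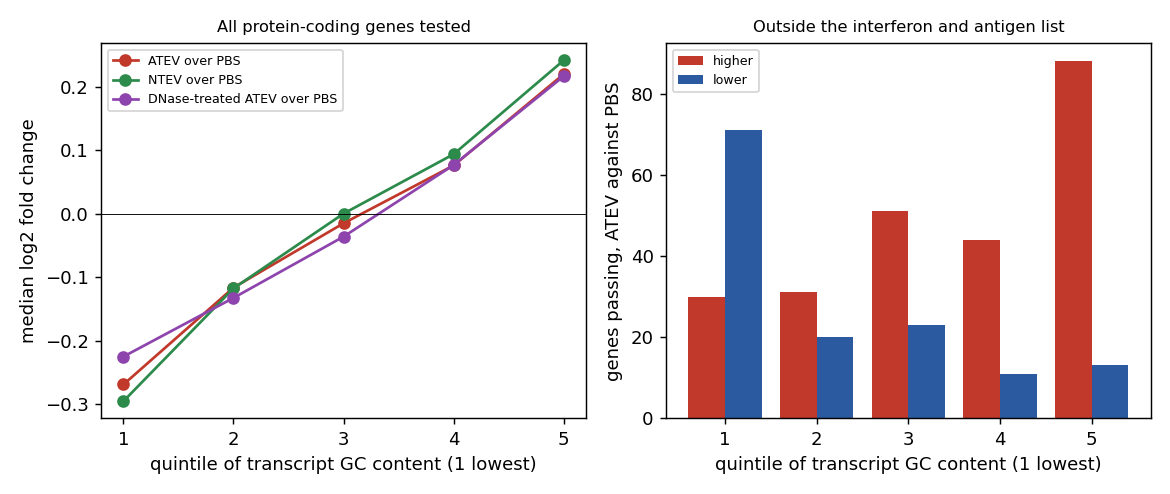
Median log2 fold change of each EV group over PBS by quintile of transcript GC content (left), and the number of genes called higher or lower with ATEVs outside the interferon list in each quintile (right). Medians climb from -0.27 to 0.22 for ATEV, and lower calls drop from 71 to 13.

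The genes above were chosen for their ATEV and PBS values, so the other EV groups are set beside them as values. ATEV against NTEV gave 181 calls over all genes (1.19%) and ATEV against DNase-treated ATEV 101 (0.665%), and both share the ATEV libraries. Mpeg1 measured 0.371 and 0.274 CPM with NTEVs and 1.77 and 1.67 CPM with DNase-treated ATEVs, below both ATEV libraries (adjusted p 0.00248 and 0.00923). Fstl1 at 1.28 and 1.24 CPM and Acta2 at 4.07 and 4.36 CPM with DNase-treated ATEVs were also lower than with ATEVs (adjusted p 0.00503 and 0.0154). These are genes that reached their high level with untreated ATEVs.

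Other rises were as high or higher after DNase pretreatment. Lcn2 measured 61.7 and 40.3 CPM with DNase-treated ATEVs, above both ATEV libraries (adjusted p = 0.0797 for that difference), and Ltbp2 59.8 and 54.4 CPM (adjusted p = 0.0259). Pou2f2 measured 28.1 and 30.0 CPM, also above both ATEV libraries (adjusted p = 0.354). Cebpd measured 110 and 71.4 CPM with DNase-treated ATEVs and 9.23 and 17.9 CPM with NTEVs. Nos2 measured 10.6 and 3.14 CPM with DNase-treated ATEVs and 0 and 0.0249 CPM with NTEVs, so its DNase-treated libraries spanned the ATEV values.

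Among the falls, Homer2 and Slc4a11 were lowest with untreated ATEVs. Homer2 measured 65.5 and 59.8 CPM with NTEVs and 33.7 and 25.0 CPM with DNase-treated ATEVs (adjusted p 0.00128 and 0.0123 against ATEV). Slc4a11 measured 8.89 and 8.56 CPM and 6.46 and 6.82 CPM (adjusted p 0.0103 and 0.0321). Lars2, Ppp1cb and Rps29 were low in all 3 EV groups. Ppp1cb measured 232 and 219 CPM with NTEVs and 246 and 247 CPM with DNase-treated ATEVs, and it was lower than PBS in both (adjusted p 0.0208 and 0.0224). S100a6 measured 4673 and 6536 CPM with DNase-treated ATEVs, against 2872 and 3441 CPM with ATEVs (adjusted p = 0.159).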

How the data were processed

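Per the labels' protocols, total RNA was column-purified and stranded mRNA libraries were prepared. Build mm9 and the tools Cufflinks 2.1.1, TopHat, TopHat2 2.0.11 and bcl2fastq 2.19 appear in the submitters' processing notes, without their roles. The deposited values are integer counts for 42687 Ensembl identifiers. How reads were assigned to genes, with which annotation and strand setting, is not given in the sources used here, so overlapping genes are uncertain. Besides those said above to overlap, Noxa1 (Entpd8), Prg4 (Tpr), Fbn1 (Gm9913) and Hspa1a (Gm20481) overlap a protein-coding gene on the opposite strand. Symbols (42329 identifiers), classes, GC content and lengths came from GENCODE M21. Its exon positions were used only to find which named genes overlap other genes.

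In R 4.3.3, edgeR 4.0.16 kept 15197 genes by its expression filter, TMM-scaled them and fitted all 8 libraries by quasi-likelihood, each group having its own mean (4 residual degrees of freedom, common BCV 0.226). P-values are two-sided and adjusted by Benjamini-Hochberg over all genes tested, and called under 0.05. CPM values use the TMM sizes, folds come from the fit, SE is the standard error of the log2 fold change, and n = 2 libraries a group. Where PBS had 0 counts, 3 counts in the group served as the floor, and ratios on 1 to 3 counts have an exact 95% interval. No molecular identifiers are named in the labels, so intervals cover counting error only. The libraries of a group differed beyond sampling noise (chi-square per gene 39.0 with PBS and 145 with ATEV), and each was counted. The fit was tested on simulated counts. DESeq2 1.42.0 and other settings were alternatives. Promoters came from RefSeq, and Python 3.11.15 was used for searches.

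The genes compared and the gene lists were chosen with earlier results of these data known. Named genes, apart from those said to be chosen after their values were seen, followed a rule. It took protein-coding genes called outside the interferon and antigen list, with non-overlapping groups and a mean log2 CPM of 1 or more. From these came the rises and falls largest by fold (15 each) and by CPM (10 each). Each list then gave up to 4 called members by smallest p, and 6 list genes as a base. Some genes that the rule takes, and some markers and alleles, are not given here. Markers of ductal, T, myeloid, B, fibroblast and endothelial cells were checked.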

Additional observations from a re-analysis of the deposited data

How the results depend on the processing

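Counts are given as protein-coding higher and lower, then all genes higher and lower, then protein-coding genes outside the interferon list higher (those lower are the same genes as all protein-coding genes lower, unless given). The reported counts are 389, 139, 535, 253 and 244. DESeq2 gave 752, 379, 951, 520 and 583, and no filter on low counts 779, 293, 995, 459 and 599. The PBS and ATEV libraries alone gave 255, 39, 342, 112 and 122. Protein-coding genes alone gave 79 lower and 160 higher outside the list, and the GC offset 156 higher outside it. With median-of-ratios or upper quartile scaling all 5 counts stayed within 1.5 times. Of the 244 and 139, 110 and 38 kept their calls with the PBS and ATEV libraries alone, and 241 and 138 with DESeq2.

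Leaving out each library in turn gave 70 to 255 protein-coding genes higher, 6 to 38 lower, 104 to 340 of all genes higher, 27 to 70 lower, and 20 to 135 higher outside the list. Without PBS library 1, 22 of the 244 and 15 of the 139 kept their calls, without PBS library 2, 18 and 6, without ATEV library 1, 115 and 27, and without ATEV library 2, 80 and 28. A lone library is assumed to vary like the other groups.

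The replicate numbers are not stated to pair libraries. Deviations of same-numbered libraries correlated at -0.18 between PBS and ATEV, -0.24 between PBS and NTEV and -0.14 between PBS and DNase-treated ATEV, and at 0.53, 0.55 and 0.49 among the EV groups. With the replicate block the counts were 588, 302, 748, 434 and 425, and 243 and 139 of the 244 and 139 kept their calls. The replicate block with GC offset gave 210 lower. With a crossed block, chosen after seeing the data, in which the PBS numbers were exchanged, the counts were 1394, 1400, 1668, 1630 and 1204 (1399 lower outside the list). The cause of these differences was not tested. Genes at a few counts with PBS, such as Nos2, Lcn2 and Slpi, have folds known only to the width of their counting intervals.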

Other observations

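Lists of stress genes had few members called. Of 62 tested ATF4 and endoplasmic reticulum stress genes 1 was higher (Cebpb) and 0 lower by edgeR (1 at an unadjusted p under 0.05, 0 by DESeq2), with a median log2 fold change of -0.02. Of 42 heat shock chaperones 1 was higher, Hspa1a, and 0 lower (5 unadjusted, 2 by DESeq2), with a median of -0.29 that was -0.44 without ATEV library 1 and -0.10 without ATEV library 2. Both ATEV libraries lay below both PBS libraries for 20 of the 42, against 26.9% of all protein-coding genes. Of 41 p53 pathway genes 2 were higher (Bbc3 and Fas) and 1 lower (Perp), with a median of 0.06. The shares of all protein-coding genes were 3.05% higher and 1.09% lower.

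Extracellular proteases and their inhibitors had 2 of 64 tested members higher, Adam28 and Slpi, and 4 lower, Serpinb9b, Plau, St14 and Serpinb5. Integrins, cadherins and tetraspanins had 2 of 64 higher, Itgb7 and Icam1, and 2 lower, Cd53 and Tspan7. Over all protein-coding genes the shares were 3.05% higher and 1.09% lower. Growth factors and receptor tyrosine kinases had 1 of 68 higher, Pros1, and 0 lower (9 unadjusted, 4 by DESeq2). Constitutive proteasome subunits had 0 of 41 called in either direction by edgeR, with 1 member at an unadjusted p under 0.05 and 0 called by DESeq2, and a median log2 fold change of -0.23.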
